A study of Homo sapiens with 9 samples.

Results

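QPRT, the overlapping transcript AC009133.22 and the enzymes of nicotinamide adenine dinucleotide (NAD) synthesis were followed through 9 RNA-seq libraries made from ES-2, an ovarian cancer cell line of human origin. 7 genes were named for this account: QPRT, AC009133.22, NAMPT, NMNAT1, NMNAT3, NADK and NADSYN1. 6 of them matched a row among the 32997 rows of the expression table, and NMNAT3 was not analysed here. QPRT and AC009133.22 were chosen by their expression values in these same libraries, which were lower in both overexpression groups than with the vector, so their values are given as a description with no test. The other enzymes were taken by role, but with earlier results of these data known, so their choice was not blind to the data. The groups were cells with OTUB2 overexpression, cells with SNX29P2 overexpression and cells with an empty vector, 3 libraries each. All cells were the same untreated line grown in RPMI-1640 with serum. The OTUB2 protein removes ubiquitin from other proteins, and SNX29P2 is a pseudogene copy derived from SNX29. The sources used here name neither the promoter of the constructs nor whether each line was a clone or a pool. The study's title links OTUB2 with mitochondrial metabolism, and the comparison made here asks how NAD synthesis genes stand in each group.

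NAD carries electrons between metabolic enzymes and is consumed by sirtuins and poly(ADP-ribose) polymerases. Cells make it from tryptophan through the kynurenine route, from nicotinic acid through the Preiss-Handler route, or by recycling nicotinamide. QPRT, quinolinate phosphoribosyltransferase, joins the end of the kynurenine route to the Preiss-Handler route by turning quinolinate into nicotinic acid mononucleotide. NMNAT enzymes then add the adenylate group, and NADSYN1 completes NAD by amidation. NAMPT is the rate-limiting enzyme of recycling, and NADK phosphorylates NAD to NADP.

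The table held RPKM, reads per kilobase of gene length and per 1000000 reads in genes, from which whole reads were recovered. Libraries had 38504854 to 48551215 reads in genes. OTUB2 was at 37.6 to 42.6 RPKM in its own libraries and at 1.04 to 1.58 RPKM in the other 6. SNX29P2 was at 41.0 to 55.1 RPKM in its own libraries and at most 0.0665 RPKM elsewhere. VIM and KRT18, a mesenchymal and an epithelial filament gene, were abundant in the line at means of 1054 and 121 RPKM, whereas EPCAM, an epithelial surface marker, was at 0 in 6 libraries. OTUB2 replicate 1 stood apart in leukocyte markers. The summed level of 6 of them (PTPRC, CD74, HLA-DRA, LYZ, CD3E and MS4A1) was 9.08 RPKM there and 0.179 to 0.681 RPKM in the other 8 libraries, with PTPRC, CD3E and MS4A1 at 0 in 7, 8 and 8 libraries. CD68, also on that list, was at 32.0 RPKM on average in all libraries. Values of QPRT and AC009133.22 without that library are given beside the results.

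QPRT and AC009133.22 share exons. In the coordinates of the table (GRCh38), QPRT spans 29679008 to 29698699 on the plus strand of chromosome 16. AC009133.22 spans 29663279 to 29695144 on the same strand, so it starts 15729 bases before QPRT and ends 3555 bases before the end of QPRT. Its exons hold 610 bases in 3 pieces. The first piece, 38 bases at 29663279 to 29663316, lies within an exon of SPN, which encodes the leukocyte surface protein sialophorin. The second, 91 bases at 29679120 to 29679210, lies within the first exon of QPRT. The third, 481 bases at 29694664 to 29695144, lies within the second exon of QPRT. Thus 572 bases, 93.8% of the exon length of AC009133.22 and 15.7% of that of QPRT, are shared with QPRT, and the remaining 38 are shared with SPN. No exon base belongs to AC009133.22 alone.

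The second QPRT exon carries most of the overlap. It is coding over all of its 536 bases, 60.2% of the 891 coding bases of the GENCODE 29 transcript QPRT-202, and has a GC content of 69.0%. Its last 300 bases are shown because the overlap ends within them. Capitals mark the bases that AC009133.22 shares, and the last 55 bases belong to QPRT and not to AC009133.22.
End of QPRT exon 2, chr16:29694900-29695199, GRCh38, plus strand: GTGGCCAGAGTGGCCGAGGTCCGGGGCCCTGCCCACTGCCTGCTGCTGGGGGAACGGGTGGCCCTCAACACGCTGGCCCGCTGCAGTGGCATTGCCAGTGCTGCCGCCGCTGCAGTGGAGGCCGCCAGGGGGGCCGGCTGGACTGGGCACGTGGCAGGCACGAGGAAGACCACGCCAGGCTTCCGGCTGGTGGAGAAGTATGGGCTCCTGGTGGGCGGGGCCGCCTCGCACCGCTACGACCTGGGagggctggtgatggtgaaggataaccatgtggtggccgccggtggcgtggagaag

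The sequence before the first QPRT start is shown because AC009133.22 begins far upstream of it, so this stretch lies inside an intron of AC009133.22. A second RefSeq promoter window of QPRT, from base 29678930, reaches the second exon piece of AC009133.22 and is not shown. RefSeq (GRCh38.p14) places the first start at 29679008. The 250 bases before it hold a single CpG, marked in capitals. Over the RefSeq window of 300 bases for this start there was also 1 CpG. The median was 14 over 35116 promoter windows, and 11.0% of windows had as few.
QPRT promoter, chr16:29678758-29679007, GRCh38.p14, plus strand: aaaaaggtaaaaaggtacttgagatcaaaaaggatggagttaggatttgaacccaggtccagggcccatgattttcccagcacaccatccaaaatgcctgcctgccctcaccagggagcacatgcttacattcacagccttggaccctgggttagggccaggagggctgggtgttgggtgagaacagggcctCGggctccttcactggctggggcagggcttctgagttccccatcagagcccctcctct
On either strand of the 300-base window, none of the letters GGGCGG (the GC box), ACGTG and GCGTG (cores of the hypoxia response element) or TATAAA (the TATA box) was found. They occur in 45.0, 21.4, 36.5 and 11.5% of all windows. The GC box and both hypoxia cores contain a CpG, and this window holds only 1. Their absence therefore largely repeats the low CpG number and is no separate result. Control of QPRT through any of these elements was not tested.

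**Figure D1:**
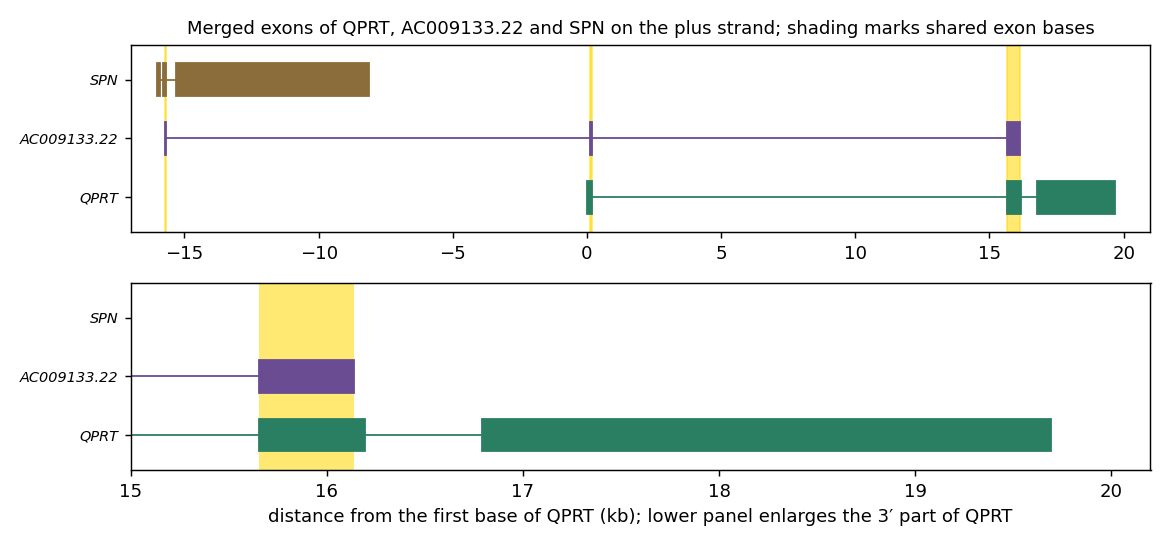
Merged exons of SPN, AC009133.22 and QPRT against the distance in kb from the first base of QPRT, with the lower panel enlarging the 3′ part. Shading marks shared exon bases, and each of the 3 AC009133.22 exons lies within an exon of SPN or QPRT.

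QPRT lay below the vector in both overexpression groups. With OTUB2 its level was 1.46, 1.80 and 1.14 RPKM, with SNX29P2 1.62, 1.80 and 1.45 RPKM, and with the vector 4.47, 4.73 and 2.28 RPKM. Each of the 6 overexpression libraries was below each vector library, and vector replicate 3 lay between the other vector libraries and the overexpression libraries. The fitted log2 fold change was -1.28 (SE 0.263) for OTUB2 over vector, a 2.43-fold lower level. It was -1.13 (SE 0.263) for SNX29P2 over vector, a 2.18-fold lower level. Between OTUB2 and SNX29P2 the libraries overlapped, with a log2 fold change of -0.15 (SE 0.263). The SEs given for QPRT and AC009133.22 do not allow for the choice of these genes by their values. These fold changes are on the log2(RPKM + 0.1) scale, which understates the change of low genes. In bulk RNA, fewer expressing cells and less RNA per cell cannot be told apart.

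Replicate 3 was the lowest library for QPRT in each group, and replicate 2 the highest. The distance between the groups depended on vector replicate 3. Without it the log2 fold change of QPRT was -1.61 with OTUB2 and -1.45 with SNX29P2, while without vector replicate 2 it was -1.10 and -0.94. Without OTUB2 replicate 1, the library with leukocyte markers, it was -1.29 with OTUB2. The behaviour of all genes gives the background. With OTUB2, 4.91% of the 16533 genes tested had all libraries below the vector libraries without overlap, and with SNX29P2 5.53% did. Because QPRT was chosen for this pattern, nothing is read from its place in that share. Both comparisons use the same vector libraries.

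**Figure D2:**
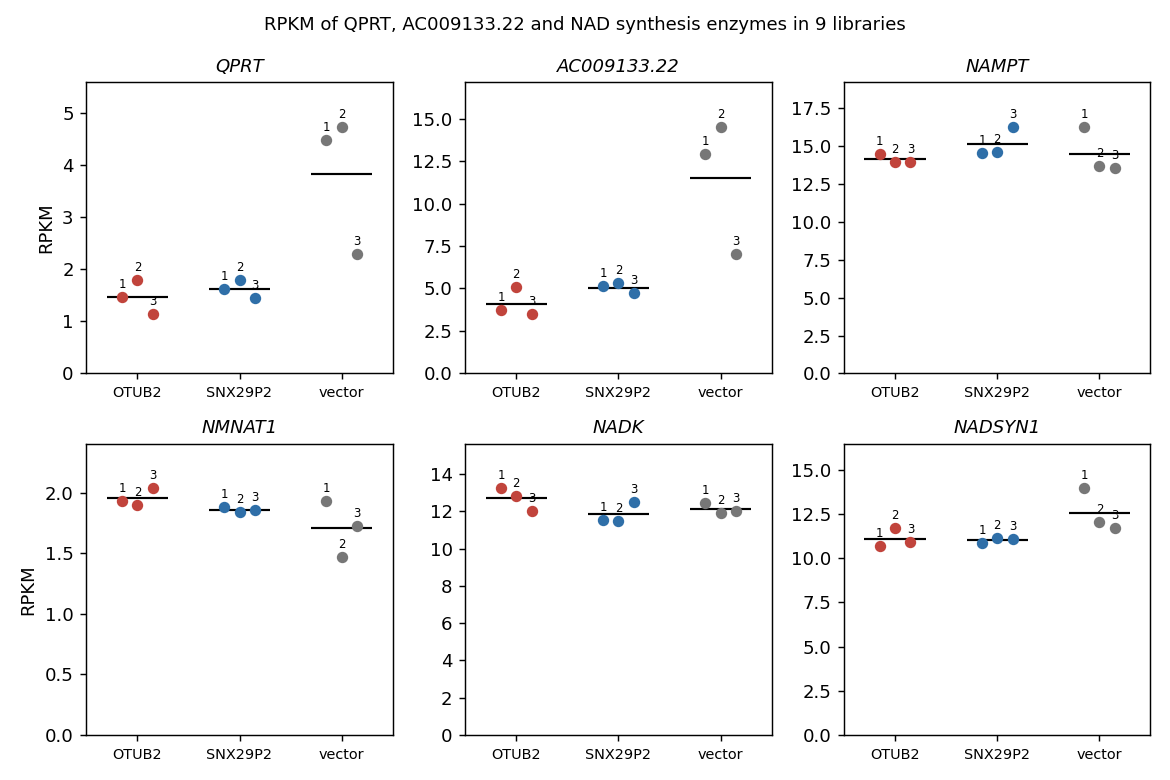
RPKM of the 6 measured genes in each library, with points numbered by replicate, lines at group means and all axes from 0. QPRT and AC009133.22 are below every vector library in all 6 overexpression libraries, and the other 4 genes vary by at most 1.39-fold over the 9 libraries.

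AC009133.22 followed QPRT library by library. It was at 3.75, 5.10 and 3.49 RPKM with OTUB2, at 5.15, 5.29 and 4.72 RPKM with SNX29P2 and at 12.9, 14.5 and 7.02 RPKM with the vector. Its groups, like those of QPRT, did not overlap between either overexpression group and the vector. Replicate 3 was again the lowest library of each group. The log2 fold change was -1.41 (SE 0.244) for OTUB2 over vector and -1.10 (SE 0.244) for SNX29P2 over vector. With single libraries left out these ranged from -1.73 to -1.21 and from -1.42 to -0.90, the larger differences without vector replicate 3 and the smaller without vector replicate 2. Without OTUB2 replicate 1 it was -1.36 for OTUB2 over vector. Over the 9 libraries its log2 level correlated with that of QPRT at a Pearson r of 0.99, and at 0.98 after the group means were removed. This is a description of 9 libraries, and the genes share exons.

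The reads of both rows show how far they repeat each other. QPRT had 226, 318 and 166 reads in the OTUB2 libraries, 270, 262 and 250 in the SNX29P2 libraries and 695, 664 and 344 in the vector libraries. AC009133.22 had 97, 151 and 85 reads with OTUB2, 144, 129 and 136 with SNX29P2 and 336, 341 and 177 with the vector. The reads of AC009133.22 therefore came to 47.2 ± 4.15% of those of QPRT with OTUB2, 52.3 ± 2.73% with SNX29P2 and 50.4 ± 1.77% with the vector (SD, n = 3 each). That share was 42.9% in its lowest library and 54.4% in its highest, a narrow band beside the 4.15-fold range of QPRT itself.

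Every one of the 32997 rows of this table had reads in some library. Rows without an exon base of their own were therefore seen only where they held reads. Of 570 rows whose exon bases all lie within exons of other rows on the same strand, 403 had at least 10 reads in every library. Of 517 rows whose exon bases all lie within exons on the opposite strand only, 299 did. The table does not say whether a read of shared bases was entered in each row that covers it. SPN, the other gene that shares bases with AC009133.22, had 24 reads in OTUB2 replicate 1 and 0 to 4 reads in each other library. AC009133.22 and QPRT thus cannot be told apart at their shared exons, and AC009133.22 is no independent measurement of a second transcript.

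If each shared read was entered in both rows, the difference between the rows is the least number of QPRT reads that AC009133.22 does not hold. Per 1000000 reads in genes, this difference was 3.04, 3.44 and 2.03 reads with OTUB2, 2.75, 3.33 and 2.42 with SNX29P2 and 8.41, 8.39 and 4.04 with the vector. On that scale it averaged 2.84 ± 0.728 reads with OTUB2, 2.83 ± 0.463 with SNX29P2 and 6.95 ± 2.52 with the vector (SD, n = 3 each). The whole QPRT row came to at most 6.56 in any overexpression library, below the 8.41 and 8.39 of vector replicates 1 and 2 outside AC009133.22 alone. Under that condition, reads outside the shared exons were fewer than in these 2 vector libraries in each of the 6 overexpression libraries. For vector replicate 3, at 4.04 or more, the order is not fixed by these numbers.

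**Figure D3:**
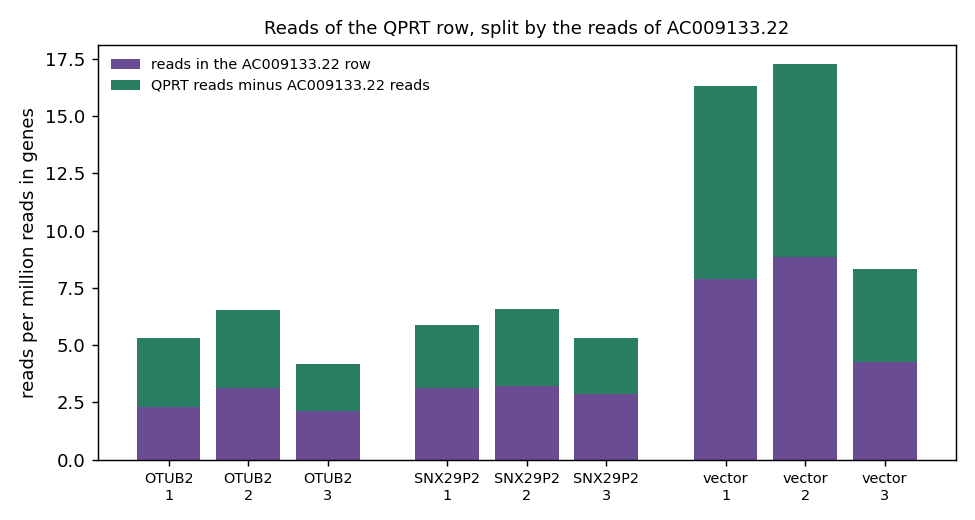
Reads per 1000000 reads in genes in the QPRT row of each library, split into the number in the AC009133.22 row (purple) and the difference between both rows (green). The purple part makes up 42.9 to 54.4% of each bar, and both parts are lower in all 6 overexpression libraries than in any vector library.

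The enzymes that complete, recycle and phosphorylate NAD were close to level across the groups. NAMPT (chromosome 7, 106248285 to 106286326) was at 14.5, 14.0 and 14.0 RPKM with OTUB2, at 14.6, 14.6 and 16.3 RPKM with SNX29P2 and at 16.3, 13.7 and 13.5 RPKM with the vector. SNX29P2 replicate 3 and vector replicate 1 were the highest libraries, and both overexpression groups overlapped the vector. The log2 fold change was -0.03 (95% interval -0.22 to 0.16) with OTUB2 and 0.07 (-0.12 to 0.26) with SNX29P2, and limma's Benjamini-Hochberg adjusted p was 0.98 and 0.884.

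NMNAT1 (chromosome 1, 9943428 to 9985501), the nuclear adenylyltransferase, was at 1.93, 1.90 and 2.04 RPKM with OTUB2, at 1.88, 1.84 and 1.85 RPKM with SNX29P2 and at 1.93, 1.47 and 1.73 RPKM with the vector. Vector replicate 2 was the lowest library, and both overexpression groups overlapped the vector. The log2 fold change was 0.19 (95% interval -0.08 to 0.46) with OTUB2 and 0.12 (-0.15 to 0.39) with SNX29P2 (limma, Benjamini-Hochberg adjusted p = 0.824 and 0.833). NADK (chromosome 1, 1751232 to 1780457) was at 13.2, 12.8 and 12.0 RPKM with OTUB2, at 11.5, 11.5 and 12.5 RPKM with SNX29P2 and at 12.5, 11.9 and 12.0 RPKM with the vector. No group was separate from another for this kinase. Its log2 fold change was 0.06 (95% interval -0.09 to 0.21) with OTUB2 and -0.04 (-0.19 to 0.12) with SNX29P2 (limma, Benjamini-Hochberg adjusted p = 0.915 and 0.928).

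NADSYN1 (chromosome 11, 71453109 to 71524107), the NAD synthetase that acts after QPRT and the NMNAT step, was the enzyme nearest to the pattern of QPRT. It was at 10.7, 11.7 and 10.9 RPKM with OTUB2, at 10.8, 11.1 and 11.1 RPKM with SNX29P2 and at 14.0, 12.0 and 11.7 RPKM with the vector. The SNX29P2 libraries were all below the vector libraries, as for 5.53% of all genes tested. OTUB2 replicate 2 reached just into the vector range, and vector replicate 1 was the highest. The log2 fold change was -0.17 (95% interval -0.35 to 0.01) with OTUB2 and -0.18 (-0.36 to -0.00) with SNX29P2. Neither passed (limma, Benjamini-Hochberg adjusted p = 0.750 and 0.602).

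Of these 4 enzymes, 0 were called in any of the 3 comparisons at a limma Benjamini-Hochberg adjusted p under 0.05, and 0 were called by limma voom on recovered reads. The background was as low, with 0.0181% of genes called for OTUB2 against vector, 0.0363% for SNX29P2 against vector and 0.0242% for OTUB2 against SNX29P2. At an unadjusted p under 0.05 there were 0, 1 (NADSYN1) and 0 of the 4, where all genes gave 6.73, 8.21 and 2.43%. Between OTUB2 and SNX29P2 the log2 fold changes were -0.10 for NAMPT, 0.07 for NMNAT1, 0.10 for NADK and 0.01 for NADSYN1. The 4 enzymes gave 0 with all libraries below the vector and 0 above with OTUB2, where 4.91 and 5.9% of all genes did. With SNX29P2 they gave 1 below (NADSYN1) and 0 above, where 5.53 and 6.13% of all genes did. Between OTUB2 and SNX29P2, NAMPT lay wholly below and NMNAT1 wholly above, as did 4.05 and 4.3% of all genes. The 95% intervals against the vector extend to 0.46 in size at most.

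Ordered by mean RPKM over all libraries, NAMPT (14.6) stood above NADK (12.2) and NADSYN1 (11.6), and QPRT (2.31) and NMNAT1 (1.84) were far lower. NAMPT and NADK did not overlap in any library, whereas NADK and NADSYN1 did, and so did QPRT and NMNAT1. QPRT was below NMNAT1 in all OTUB2 and SNX29P2 libraries and above it in all vector libraries. Lengths in this table are unions of all annotated exons, 3642 bases for QPRT and 16263 for NADSYN1, which lowers the RPKM of genes with long untranslated or retained parts.

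The rest of NAD metabolism was surveyed with a list of 53 genes, 48 of which had a row and 40 of which passed the filter of 0.5 RPKM in at least 3 libraries. In the kynurenine route upstream of QPRT, the dioxygenases TDO2 and IDO1 and the kynureninase KYNU were at most at 0.0166, 0.0289 and 0.00533 RPKM in any library, at 0 in 5, 7 and 5 libraries, where 3 reads correspond to at most 0.0148, 0.0239 and 0.00443 RPKM. HAAO and IDO2 were not analysed here. ACMSD, which diverts the precursor of quinolinate, was at most at 0.180 RPKM. KMO, the kynurenine hydroxylase, was at 1.70 ± 0.421 RPKM with OTUB2, 1.94 ± 0.162 with SNX29P2 and 1.93 ± 0.200 with the vector (SD, n = 3 each). The aminotransferase KYAT3, which makes kynurenic acid instead, was higher, at 17.0 ± 0.576, 16.6 ± 0.541 and 15.9 ± 1.54 RPKM in the same order of groups. Several enzymes upstream of QPRT were thus at or near 0.

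Besides QPRT, 5 genes of the kynurenine list passed the filter, 0 of them were called in the 3 comparisons, and each overlapped the vector in both overexpression groups. The median log2 fold change of these 5 was -0.05 with OTUB2 and -0.02 with SNX29P2, beside 0.01 and 0.01 over all genes tested. In the list for salvage and the Preiss-Handler route 8 genes passed the filter, with 0 called and medians of -0.05 and -0.07. Among them NMNAT2, the cytosolic adenylyltransferase, was at 16.9 ± 1.19 RPKM with OTUB2, 15.4 ± 1.55 with SNX29P2 and 16.1 ± 2.13 with the vector, far above NMNAT1. NAPRT, which starts the Preiss-Handler route, was at 7.53 ± 0.680, 6.73 ± 0.544 and 7.97 ± 1.47 RPKM in that order. NT5E, the ecto-nucleotidase CD73, had the highest level of all listed genes, at 79.7 ± 4.96 RPKM with OTUB2, 80.1 ± 5.81 with SNX29P2 and 84.2 ± 7.29 with the vector (SD, n = 3 each). In the list for NADP and repair of damaged cofactor 6 genes passed, 0 were called and the medians were 0.05 and 0.02. The largest change there was that of NUDT12, a cofactor hydrolase, at 0.28 with SNX29P2 (limma, Benjamini-Hochberg adjusted p = 0.668).

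Leaving out QPRT, 39 genes remain, of which 0 were called in the 3 comparisons by limma on log2 RPKM and by limma voom alike. At an unadjusted p under 0.05 there were 0 of 39 with OTUB2 over vector, 2 (SIRT1 and NADSYN1) with SNX29P2 over vector and 1 (TNKS2) with OTUB2 over SNX29P2, where all genes gave 6.73, 8.21 and 2.43%. With OTUB2 21 were higher and 18 lower than with the vector, beside 8597 and 7936 of all genes tested. With SNX29P2 20 were higher and 19 lower, beside 8865 and 7668. Their fold changes ranged from -0.20 to 0.37 with OTUB2 and from -0.23 to 0.37 with SNX29P2. QPRT, chosen for its values, was at -1.28 and -1.13.

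**Figure D4:**
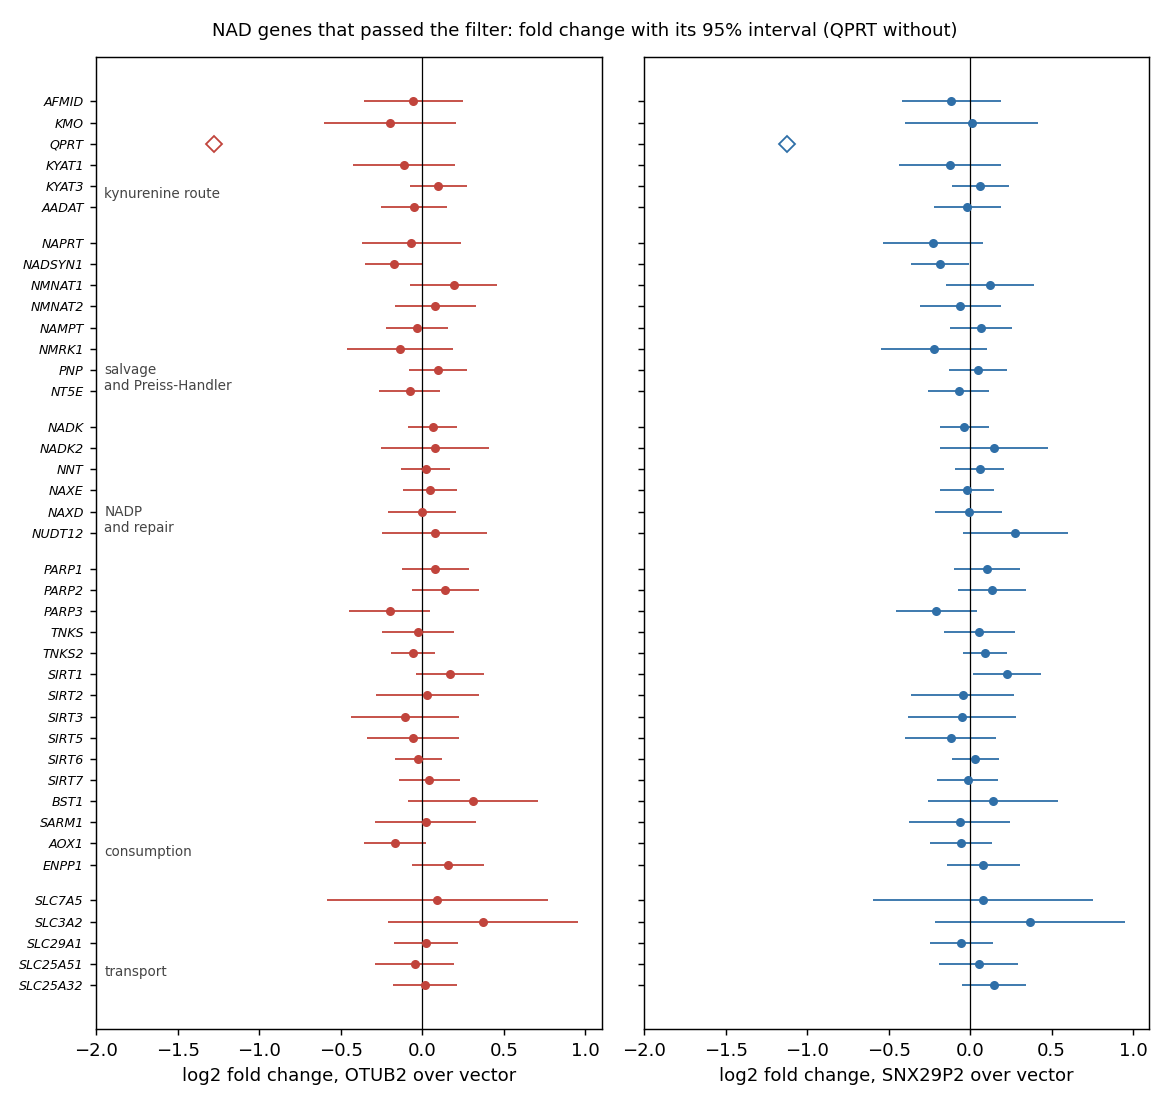
Log2 fold change over vector, with 95% intervals, of the 40 listed NAD genes that passed the filter, for OTUB2 (left) and SNX29P2 (right), ordered by route. QPRT, drawn as an open diamond with no interval because it was chosen for its values, lies at -1.28 and -1.13, and the other 39 lie between -0.23 and 0.37.

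The genes around QPRT were then examined. The annotated SNX29P2 gene, as distinct from the overexpression construct, ends 308736 bases before QPRT on the same chromosome, and OTUB2 lies on chromosome 14. An effect of position was not tested. Apart from AC009133.22, 38 other rows lie within 250000 bases of QPRT, and 28 of them passed the filter. A further 2 rows of multi-copy small RNAs, whose listed spans join several loci, were left out. The median log2 fold change of these 28 was -0.01 with OTUB2 and -0.07 with SNX29P2, and 0 were called. With OTUB2 13 were higher and 15 lower than with the vector, beside 8597 and 7936 of all genes tested. With SNX29P2 5 were higher and 23 lower, beside 8865 and 7668. At an unadjusted limma p under 0.05 there were 1 and 3 of the 28, all lower, where all genes gave 6.73 and 8.21%. Several of these rows overlap in position, so they are not independent. The 6 nearest that passed the filter overlapped the vector in both comparisons. KIF22, a mitotic kinesin, was at 20.8 ± 1.11 RPKM with OTUB2, 19.7 ± 0.416 with SNX29P2 and 19.2 ± 3.54 with the vector, and MAZ, a zinc finger transcription factor, at 26.2 ± 1.99, 24.9 ± 1.30 and 26.1 ± 2.88 RPKM in that order (SD, n = 3 each). The antisense rows AC009133.21 and AC009133.15, which may carry reads of other genes, averaged 18.4 and 50.6 RPKM. On the other side the pseudogenes SLC7A5P1 and SMG1P2 averaged 3.28 and 1.06 RPKM.

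SEZ6L2, a membrane protein gene 172459 bases beyond QPRT (29871159 to 29899547, minus strand), had the largest change of the 28 neighbours against the vector. It was singled out after its values were seen. It was at 1.39, 1.44 and 0.774 RPKM with OTUB2, at 1.51, 1.02 and 0.949 RPKM with SNX29P2 and at 3.08, 3.19 and 1.84 RPKM with the vector. As for QPRT, all 6 overexpression libraries were below the vector libraries and replicate 3 was the lowest of each group. Its log2 fold changes of -1.11 with OTUB2 and -1.14 with SNX29P2 (SE 0.286 each) did not pass, at adjusted p-values of 0.532 and 0.488 (limma, Benjamini-Hochberg). Its log2 level correlated with that of QPRT at 0.94 over the 9 libraries and at 0.80 after group means were removed. After that removal KCTD13 and AC009133.24 were close, at 0.76 and 0.72, and AC009133.21 was at -0.72. Of the 28 neighbours, 1 lay wholly below the vector with OTUB2 and 4 with SNX29P2, where 4.91 and 5.53% of all genes did. The 4 were SEZ6L2, MVP, SLX1B and the read-through row SLX1B-SULT1A4, the last 3 also named after their values were seen.

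**Figure D5:**
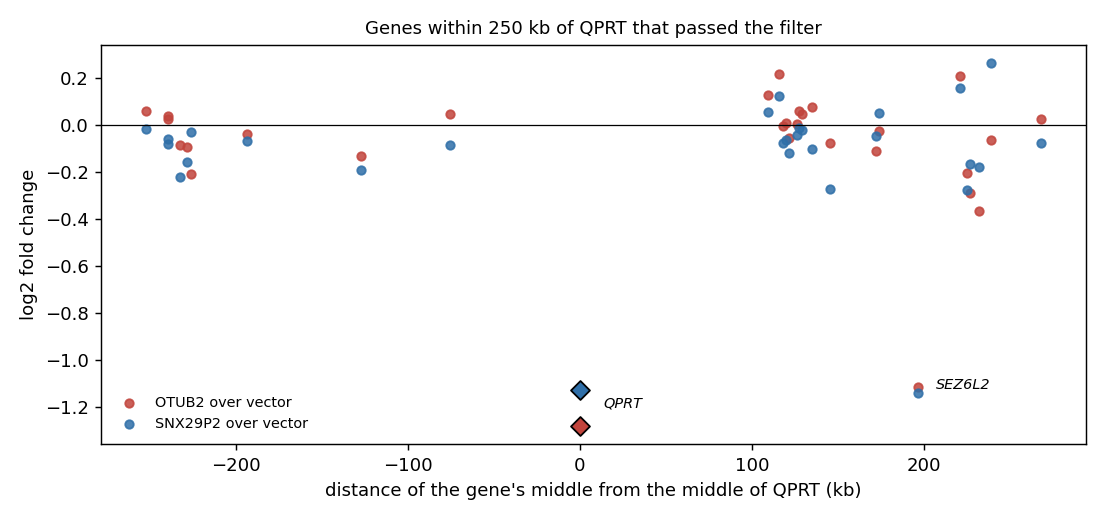
Log2 fold change over vector of the 28 neighbouring genes that passed the filter against the distance in kb between their middle and that of QPRT, red for OTUB2 and blue for SNX29P2. QPRT and SEZ6L2 lie below -1, and no other neighbour does.

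The 5 genes whose log2 level followed QPRT most closely over the 9 libraries, among 11280 genes with a symbol and a mean of at least 1 RPKM, were MFGE8, HOOK2, CTSB, PLTP and ITPR3. The Pearson r was 0.98, 0.97, 0.96, 0.96 and 0.96. These r include the differences between groups, and r after removal of group means was not computed for these 5. The likeness is one of shape, since the differences were smaller than that of QPRT. MFGE8, a secreted bridging protein for dying cells, was at 3.06 ± 0.391 RPKM with OTUB2, 3.27 ± 0.175 with SNX29P2 and 4.38 ± 0.870 with the vector. For MFGE8 both overexpression groups overlapped the vector. PLTP, the phospholipid transfer protein, was at 19.7 ± 1.36, 19.1 ± 0.892 and 30.2 ± 3.79 RPKM, and CTSB, the lysosomal protease cathepsin B, at 57.7 ± 1.02, 57.0 ± 2.66 and 67.3 ± 5.85 RPKM in that order (SD, n = 3 each). Of the enzymes described above, NADSYN1 had an r of 0.84 with QPRT, NAMPT 0.07, NADK -0.09 and NMNAT1 -0.65. After group means were removed, these were 0.58, 0.26, 0.15 and -0.26.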

How the data were processed

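RNA of 9 ES-2 libraries was analysed from 1 table of RPKM values deposited by the authors, which also lists exon positions and lengths (unions of exons). The build is GRCh38 according to the submitters' processing notes. No source used here names the aligner, counter, strand handling or annotation. Groups follow the genotype label. Whether replicates were separate cultures is not said, so the spread behind each p may be technical.

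RPKM times length gave whole reads within 0.05 reads for every value below 1000 reads. Per library, 58.1 to 60.4% of read numbers above 0 and below 1000 were even, so reads need not be independent molecules, and the limit from 3 reads covers counting error only. Genes reaching 0.5 RPKM in 3 or more libraries (16533) were fitted as log2(RPKM + 0.1) in 1 limma model (3.58.1, R 4.3.3, trended variance) with group as the only term, and p-values were adjusted over all of them by the Benjamini-Hochberg method at 0.05. The design named a count test only for a table of counts, which this is not. The program was checked on simulated data. Plots were drawn with matplotlib 3.10.9 under python 3.11.15. Exon sequence came from GENCODE 29 and promoters from RefSeq.

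The members and lists were chosen with earlier results of these data known. Named genes were the members, the transgenes, the listed NAD genes with the smallest p or the highest level, the 6 nearest neighbours and the 5 genes most like QPRT. Of 80 list entries 72 had a row. 25 gene names turned into dates were left unnamed. Alternatives were other pseudocounts, filters and scaling, a replicate block, only the compared groups, voom on recovered reads, and each library left out.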

Additional observations from a re-analysis of the deposited data

How the results depend on the processing

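The number of genes called moved with the settings. Against 3 for OTUB2 over vector, 7 were called with no filter, 1 with only the 2 groups compared and 1 to 8 with a library left out (1 when any single OTUB2 replicate or vector replicate 1 was left out, and 8 without vector replicate 3). Against 6 for SNX29P2 over vector, 1 was called with a filter of 1 RPKM in 6 libraries and 10 by voom on recovered reads, and against 4 for OTUB2 over SNX29P2, 1 with that filter. Of the NAD genes other than QPRT, 0 were called in any of these fits. QPRT was chosen for its values, so it is not counted here. QPRT and AC009133.22 kept their sign against the vector in all alternatives. The fold change of QPRT with OTUB2 ranged from -1.61 to -1.10 with a library left out and was -0.93 with a pseudocount of 1. With SNX29P2 it ranged from -1.45 to -0.94. With a library left out, that of NAMPT for OTUB2 over vector ranged from -0.078 to 0.055, and that of NADSYN1 for OTUB2 over SNX29P2 from -0.029 to 0.037. The lowest adjusted p of the 4 enzymes under any alternative was 0.360. The causes were not tested.

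Same-numbered libraries of different groups deviated together in part, with correlations of -0.02 to 0.27 (7 of 9 over 0.1) against -0.23 to 0.05 for different numbers, and the own number correlated best in 16 of 18 cases. This hints at a shared source, although 2 of the 9 same-numbered pairs were not over 0.1. The main fit was planned without a block because the labels state no shared source, and the block was kept as an alternative. With the replicate number as a block, 4, 9 and 4 genes were called in the 3 comparisons, and 1934, 2272 and 778 had an unadjusted p under 0.05, against 1112, 1358 and 402 without it. The number of NAD genes other than QPRT called stayed at 0. The fold changes, QPRT at -1.28 and -1.13, cannot move with a block in this balanced design. The SE of both QPRT fold changes was 0.162 with the block and 0.263 without it. Neither SE allows for the choice of QPRT by its values, so no test is made from them. Depth limits KYNU, TDO2 and IDO1, which are at or near 0.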

Other observations

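Enzymes that consume NAD were expressed in ES-2 cells without a called change. Of 18 listed, 15 passed the filter, with median log2 fold changes of 0.02 with OTUB2 and 0.03 with SNX29P2. PARP1, which uses NAD at DNA breaks, was at 48.5 ± 2.89 RPKM with OTUB2, 49.3 ± 3.57 with SNX29P2 and 46.0 ± 5.0 with the vector (SD, n = 3 each). AOX1, an aldehyde oxidase that also oxidises nicotinamide metabolites, was at 35.8 ± 1.87, 38.8 ± 3.80 and 40.3 ± 2.76 RPKM in that order, a log2 fold change of -0.17 with OTUB2 (limma, Benjamini-Hochberg adjusted p = 0.773). SIRT1, a nuclear deacetylase, was at 5.54, 7.09 and 6.61 RPKM with OTUB2, at 6.59, 6.85 and 6.48 RPKM with SNX29P2 and at 5.72, 5.60 and 5.68 RPKM with the vector. All its SNX29P2 libraries were above the vector, as for 6.13% of all genes tested, and OTUB2 replicate 1 was not. The log2 fold change of SIRT1 was 0.17 with OTUB2 and 0.23 with SNX29P2 (limma, Benjamini-Hochberg adjusted p = 0.796 and 0.586). TNKS2, a tankyrase, had a log2 fold change of -0.15 for OTUB2 over SNX29P2 (limma, Benjamini-Hochberg adjusted p = 1.000). CD38 and NNMT, which degrade NAD and methylate nicotinamide, were at most at 0.201 and 0.0706 RPKM.

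Among transporters, 5 of 7 listed genes passed the filter and 0 were called. SLC7A5 and SLC3A2, the chains of a tryptophan importer, varied more between vector libraries than between groups. SLC7A5 was at 55.8, 67.4 and 47.8 RPKM with OTUB2, at 55.1, 69.7 and 45.6 RPKM with SNX29P2 and at 33.6, 87.6 and 50.3 RPKM with the vector. Replicate 2 was the highest library in each group. SLC3A2 was at 41.5 ± 8.40, 41.2 ± 6.73 and 33.2 ± 12.4 RPKM in that order of groups (SD, n = 3 each). SLC25A32, a mitochondrial carrier, had a log2 fold change of -0.13 for OTUB2 over SNX29P2 (limma, Benjamini-Hochberg adjusted p = 1.000). Markers of liver and kidney, organs with an active kynurenine route, summed to at most 0.129 RPKM in any library. Of the endothelial markers CDH5 averaged 21.3 RPKM, while PECAM1, KDR and VWF were under 0.5 RPKM in all libraries.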
